A study of Mus musculus with 26 samples.

Results

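Transcripts of the enzymes and transporters that take up glucose, break it down to pyruvate and lactate, pass pyruvate into mitochondria and run the pentose phosphate pathway were followed in single mouse inner cell masses (ICMs). The module was a list of 33 gene symbols from these pathways, all of which were found among the 55254 symbols of the table. Each of the 26 libraries was made from 1 ICM of a CD-1 embryo, an outbred strain with no transgene named in the labels. Morulae of stage E2.75 grew for 24 h in KSOM medium, and after culture their zona was taken off and the outer cells were lysed by immunosurgery. FLASH-seq, a full-length method for small amounts of polyadenylated RNA, was then applied to the ICM. The medium held DMSO, the vehicle (DMSO, n = 5), 10 µM of the compound the labels call LY (LY, n = 7), 1 µg/ml of FGF4 with heparin (FGF4, n = 8), or LY and FGF4 with heparin together (LY+FGF4, n = 6). LY is taken here, from the series title, to be an inhibitor of the kinase PI3K, whose activity was not measured in these data. No group received heparin without FGF4, so the actions of FGF4 and heparin cannot be told apart. Each library is a separate embryo of mixed litters, so the tests measure the spread between embryos.

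Glycolysis turns glucose into pyruvate with a net yield of ATP and NADH. Its flow is held mainly at hexokinase, phosphofructokinase and pyruvate kinase, and several steps have isoenzymes from different genes that differ in kinetics and in control. The pentose phosphate pathway branches off after hexokinase and makes NADPH and ribose for nucleotides. Mouse embryos rely on pyruvate and lactate during the first cleavages and take up and use more glucose as they approach the blastocyst stage. PI3K and AKT are known in many cells to raise glucose uptake and glycolysis, and FGF4 directs ICM cells from the epiblast, the future body, towards the primitive endoderm, the future yolk sac lining.

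Promoters of 31 of the 33 members were found in the promoter table, and the 250 bases before each start were searched on both strands for letters linked to the control of sugar metabolism. ACGTG, a core of the hypoxia response element, stood before 12 of the 31 members (38.7%) and before 18.5% of all genes in the table. GCGTG, the other core, stood before 22 members (71%) and before 30.9% of all genes. CACGTG, the E-box bound by MYC-type and carbohydrate response factors, overlaps with ACGTG and was found for 3 members (9.68%, against 6.86% of all genes), namely Ldha, Pfkm and Slc16a1. TGANNNNGC, the core of the antioxidant response element, was found for 13 members (41.9%, against 38.7%), and TGATGNAA, part of the C/EBP-ATF element, for 0 (against 3.91%). A gene was counted if any of its starts held the letters. These matches are descriptions of letters and were not tested. Neither base composition nor the number of starts per gene was matched between members and other genes. The sequences of 4 members that changed in at least 1 comparison below and have a single start in the table are shown, leaving out those whose start lies inside the annotated gene, so that the searched letters can be seen in place. They are from RefSeq on GRCm38.p6, run 5′ to 3′ on the gene's strand and stop before the first base of the gene in GENCODE M21, and capitals mark the searched motifs:
Slc2a1, chr4:119108495-119108710, + strand: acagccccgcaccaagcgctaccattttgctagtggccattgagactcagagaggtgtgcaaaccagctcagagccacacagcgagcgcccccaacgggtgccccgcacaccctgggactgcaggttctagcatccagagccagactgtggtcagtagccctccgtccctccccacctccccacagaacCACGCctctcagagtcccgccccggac
Gpi1, chr7:34230337-34230586, - strand: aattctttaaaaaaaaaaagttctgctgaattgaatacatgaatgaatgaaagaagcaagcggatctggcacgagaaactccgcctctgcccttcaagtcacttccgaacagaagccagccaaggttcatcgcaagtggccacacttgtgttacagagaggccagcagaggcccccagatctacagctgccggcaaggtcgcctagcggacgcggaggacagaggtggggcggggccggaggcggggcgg
Pfkp, chr13:6648778-6649021, - strand: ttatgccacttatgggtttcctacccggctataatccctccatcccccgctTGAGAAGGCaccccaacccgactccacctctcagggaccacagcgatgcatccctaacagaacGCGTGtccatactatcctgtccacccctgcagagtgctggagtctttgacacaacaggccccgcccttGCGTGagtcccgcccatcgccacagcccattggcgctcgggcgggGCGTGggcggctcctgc
Pgls, chr8:71591934-71592175, + strand: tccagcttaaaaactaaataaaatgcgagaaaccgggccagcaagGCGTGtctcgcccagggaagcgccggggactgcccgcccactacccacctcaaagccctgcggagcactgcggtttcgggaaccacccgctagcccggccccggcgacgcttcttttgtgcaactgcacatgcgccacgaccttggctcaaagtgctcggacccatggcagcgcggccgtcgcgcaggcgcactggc
In these windows Pfkp held 3 matches to GCGTG and 1 to TGANNNNGC. Slc2a1 and Pgls each held 1 match to GCGTG, and Gpi1 held 0 matches to any of the 5 motifs. Slc2a1 is also among the 12 members with ACGTG, a match that lies within its 250 bases but is cut off in the 216 bases shown.

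The values are TPM, a transcript abundance scaled for length and to the same total in each library, so the number of reads behind a value is unknown. Between 9860 and 11367 genes reached 1 TPM in the DMSO and LY libraries, between 8315 and 10871 in FGF4 libraries and between 7486 and 9534 in LY+FGF4 libraries. Under 9000 genes were listed in 6 libraries, FGF4 replicates 2 and 3 together with LY+FGF4 replicates 2, 3, 5 and 8. Pou5f1, a marker of ICM cells, was found in every library at 538 to 1698 TPM. The summed TPM of 8 epiblast markers was 864 to 1234 in DMSO, 696 to 1037 in LY, 89.4 to 527 with FGF4 alone and 227 to 513 in LY+FGF4. The summed TPM of 12 primitive endoderm markers was 448 to 937, 181 to 385, 1504 to 2708 and 833 to 2666 in the same order. Markers of the trophectoderm, the layer that immunosurgery lyses, were still present, with Krt8 at 67.7 to 531 TPM in all 26 libraries. Their summed TPM over 12 markers was 730 to 1441 in DMSO, 893 to 1407 in LY, 406 to 1242 with FGF4 alone and 231 to 1202 in LY+FGF4. The count of these 12 markers at 0 went from 0 to 4 in DMSO and LY and from 1 to 9 in the groups with FGF4, and Elf5 was at 0 in 24 of 26 libraries. The 6 libraries with few genes and the shift between lineages move with the group, and their part in the results below was not tested beyond the refits named there.

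Aldoa, the aldolase that splits fructose bisphosphate, was the member with the highest level, at a median of 2185 TPM over the 26 libraries, and Pkm, pyruvate kinase, followed at 1432 TPM. Pdhb, the beta subunit of pyruvate dehydrogenase, stood at 986 TPM, Eno1, enolase, at 475 TPM and Pgd, 6-phosphogluconate dehydrogenase, at 390 TPM. These genes ranked between 21 and 478 among the 12034 genes tested. The triose phosphate steps between aldolase and enolase were lower, with Gapdh at 164 TPM, Tpi1 at 102 TPM and Pgk1 at 82.6 TPM, while Pgam1, phosphoglycerate mutase, stood at 327 TPM. Among the first steps, the transporters Slc2a1 and Slc2a3 stood at 70.3 and 64.3 TPM, Hk2 at 17.5 TPM, Hk1 at 5.53 TPM and Pfkm at 2.28 TPM. Bpgm, which makes 2,3-bisphosphoglycerate, and Pdk1, a kinase that shuts off pyruvate dehydrogenase, were at 1.26 and 1.14 TPM. Aldoc, Ldhb and Slc16a3 had a median of 0 TPM and were listed at 0 in 15, 23 and 24 of 26 libraries, and the last 2 did not pass the expression filter (a minimum of 1 TPM, reached in 5 or more libraries). The tests below therefore cover 31 of the 33 members. Together the members took up a median of 0.73% of all TPM in DMSO, 0.811% in LY, 0.776% with FGF4 alone and 0.886% in LY+FGF4, with ranges over the libraries of 0.692 to 0.846%, 0.622 to 1.15%, 0.721 to 0.971% and 0.619 to 1.52%. These ranges overlap.

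**Figure D1:**
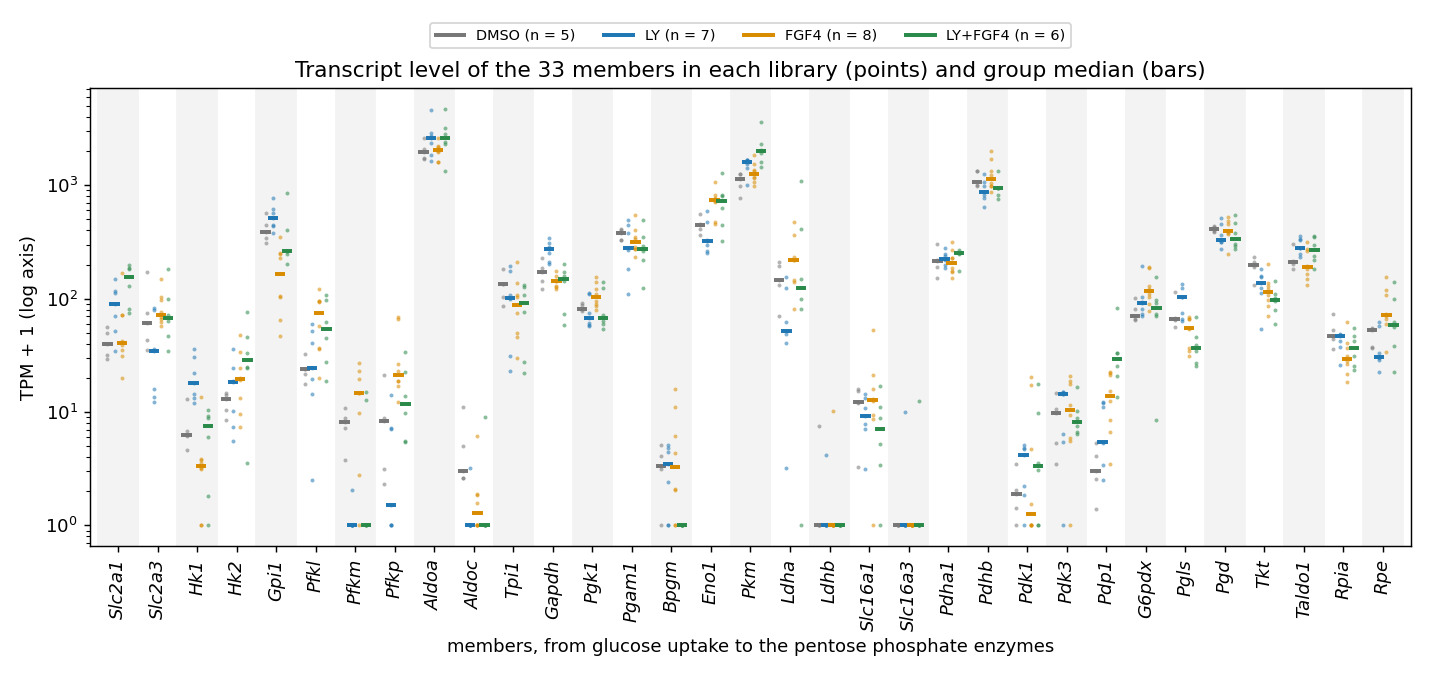
TPM plus 1 of each member in each library, on a log axis, in pathway order from glucose uptake on the left to the pentose phosphate enzymes on the right. Points are libraries, bars are group medians and colours are the 4 groups; Aldoa, Pkm and Pdhb are highest in all groups, and Ldhb and Slc16a3 lie at 0 TPM in nearly all libraries.

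For several steps nearly all transcript came from a single isoenzyme. Aldoa made up at least 99.6% of the summed TPM of Aldoa and Aldoc in every library. Ldha, the muscle-type lactate dehydrogenase subunit, made up at least 96.8% of Ldha and Ldhb in the 25 libraries in which either was listed. Slc16a1, a carrier of lactate and pyruvate, made up 100% of Slc16a1 and Slc16a3 at the median of each group, although in LY+FGF4 its share went from 0 to 100%. Pdk3 had a larger median share than Pdk1 in all 4 groups, at 91.2% in DMSO, 78.3% in LY, 97% with FGF4 alone and 75.4% in LY+FGF4.

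The median isoenzyme share differed between groups at glucose uptake, hexokinase and phosphofructokinase, which is given here as a description with no test. Slc2a1 (GLUT1) made up a median of 38.9% of Slc2a1 and Slc2a3 (GLUT3) in DMSO, 80.7% in LY, 40.2% with FGF4 alone and 63.5% in LY+FGF4. The range of this share was 22.4 to 56.7% in DMSO and 30.1 to 90.8% in LY, so the groups overlap. Hk1, the hexokinase expressed in most tissues, made up a median of 35.8% of Hk1 and Hk2 in DMSO, 55.8% in LY, 13.6% with FGF4 alone and 16.2% in LY+FGF4, and its share was 41.3 to 73.1% in LY against 0 to 28.5% in LY+FGF4. Pfkl, the liver-type phosphofructokinase, made up 66.5% in DMSO and 95.7% in LY, and 63% with FGF4 alone and 77.2% in LY+FGF4. The muscle type, Pfkm, held 8.24 to 25% in DMSO and 0 to 4.32% in LY. The share of the platelet type, Pfkp, went from 10.7 to 57% with FGF4 alone and from 3.93 to 64.6% in LY+FGF4.

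**Figure D2:**
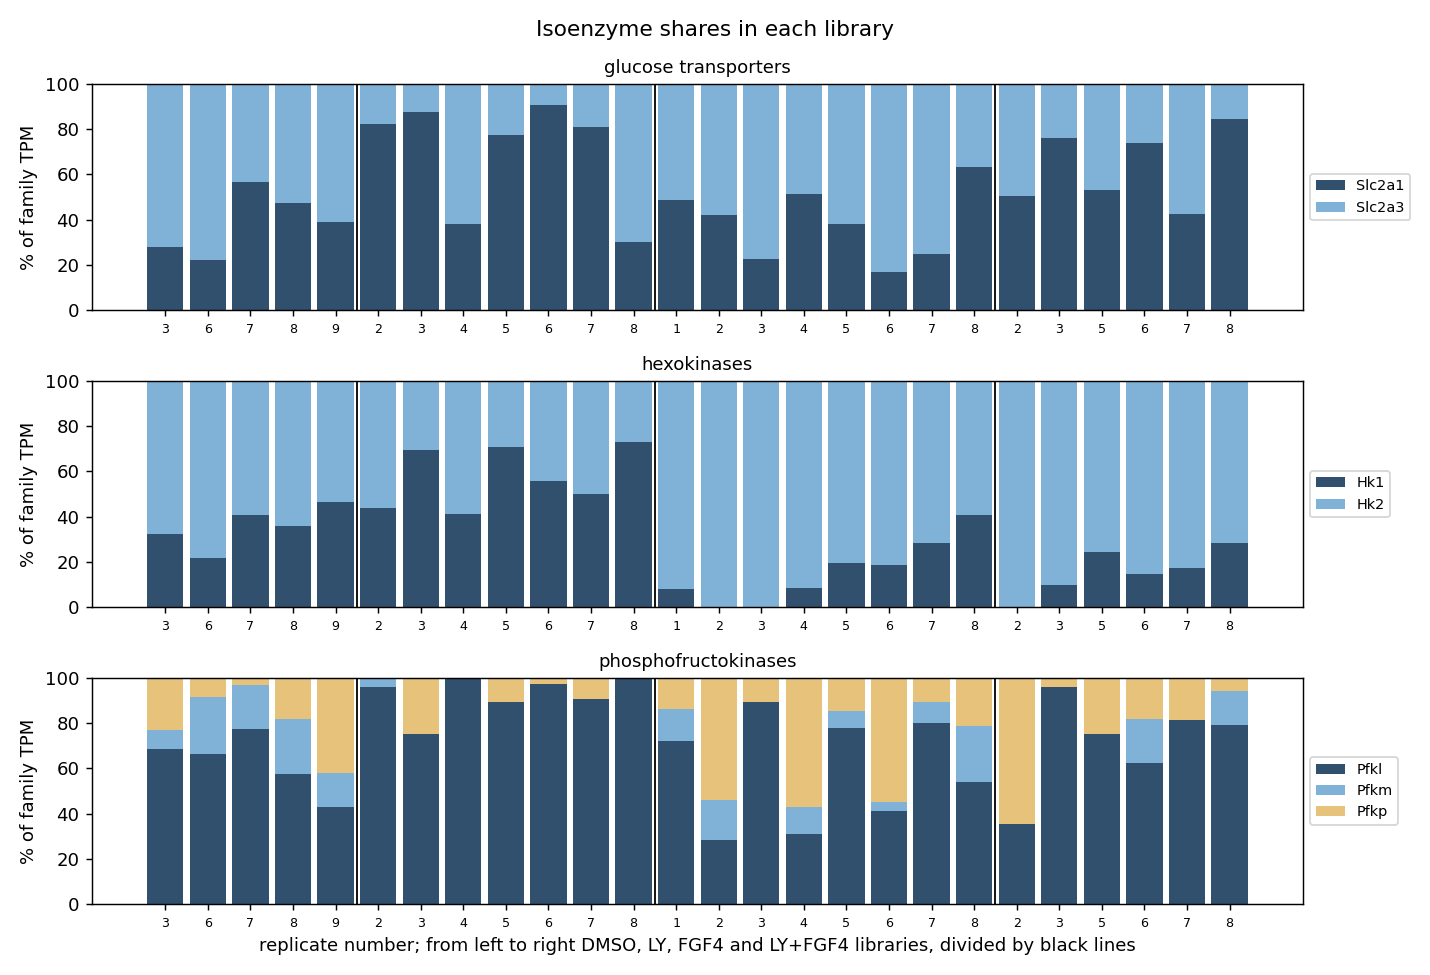
Share of each isoenzyme in the summed TPM of its family's members in the module (vertical axis, percent), for glucose transporters, hexokinases and phosphofructokinases in each library. Bars are libraries named by replicate number, in the order DMSO, LY, FGF4 and LY+FGF4; Hk1 takes 41.3 to 73.1% in LY and at most 28.5% in LY+FGF4.

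LY was first compared with its absence over both FGF4 backgrounds, using all 26 libraries. Slc2a1 and Pkm rose and Pfkm fell, which makes 3 of 31 members (9.68%), against 4.64% of all genes tested (558 of 12034). The threshold throughout is a Benjamini-Hochberg adjusted p under 0.05 over all genes tested. The median log2 fold change was -0.18 over all genes and -0.19 over the members, with 19 of 31 members below 0. In LY against DMSO 0 members passed, against 0.374% of all genes. In that limma comparison 8 of 31 members had an unadjusted p under 0.05, 4 higher and 4 lower, beside 1034 of 12034 genes. In LY+FGF4 against FGF4, 2 members passed, Slc2a1 and Pkm, both higher, against 3.55% of all genes. The difference between these LY effects was tested as an interaction, for which 0 members (lowest adjusted p = 0.696) and 0.0499% of all genes passed. For it 3 of 31 members had an unadjusted p under 0.05 in the limma fit, beside 726 of 12034 genes. With the number of genes listed per library as a covariate, a number that itself differs between groups, the 3 members called for LY averaged did not pass (log2 fold change 1.28 and adjusted p = 0.0790 for Slc2a1, -1.94 and 0.159 for Pfkm, 0.53 and 0.103 for Pkm). Their fold changes stayed within 1.5 times those without the covariate. Hk1 alone passed there (log2 fold change 2.21, adjusted p = 0.0114).

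FGF4 was compared with its absence in the same way, in a comparison added after values of these data had been seen. Here 8 of 31 members passed (25.8%), against 13% of all genes tested. Pfkl, Pfkp, Eno1 and Pdp1 rose, and Hk1, Gpi1, Gapdh and Pgls fell. The median log2 fold change was 0.04 over the members and -0.19 over all genes. In FGF4 against DMSO only Gpi1 passed, lower with FGF4, against 2.44% of all genes. In LY+FGF4 against LY, 5 members passed, Eno1 and Pdp1 higher and Hk1, Gapdh and Pgls lower, against 6.3% of all genes. These comparisons share libraries with each other and with those for LY, so their values are given side by side and are not counted as separate support. In the averaged comparison 7 of 8 epiblast markers were lower, 7 of 11 tested primitive endoderm markers higher and 4 of 10 tested trophectoderm markers lower. With the trophectoderm score as a covariate, Gpi1 and Pdp1 stayed past the threshold and the other 6 did not, and with genes listed as a covariate 0 of 31 members passed. The log2 fold changes of Pfkl, Gapdh, Pgls, Hk1, Pfkp and Eno1 follow in that order. Without a covariate they were 1.27, -0.67, -0.91, -1.64, 2.08 and 0.78. With the trophectoderm score they were 1.36, -0.69, -0.93, -1.13, 1.62 and 0.57. With genes listed they were 1.70, -0.58, -0.81, -0.47, 1.91 and 0.79. Those of Gpi1 and Pdp1 went with genes listed from -1.08 to -0.80 and from 2.11 to 1.79. In whole ICMs, fewer cells of a type and less RNA per cell cannot be told apart.

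**Figure D3:**
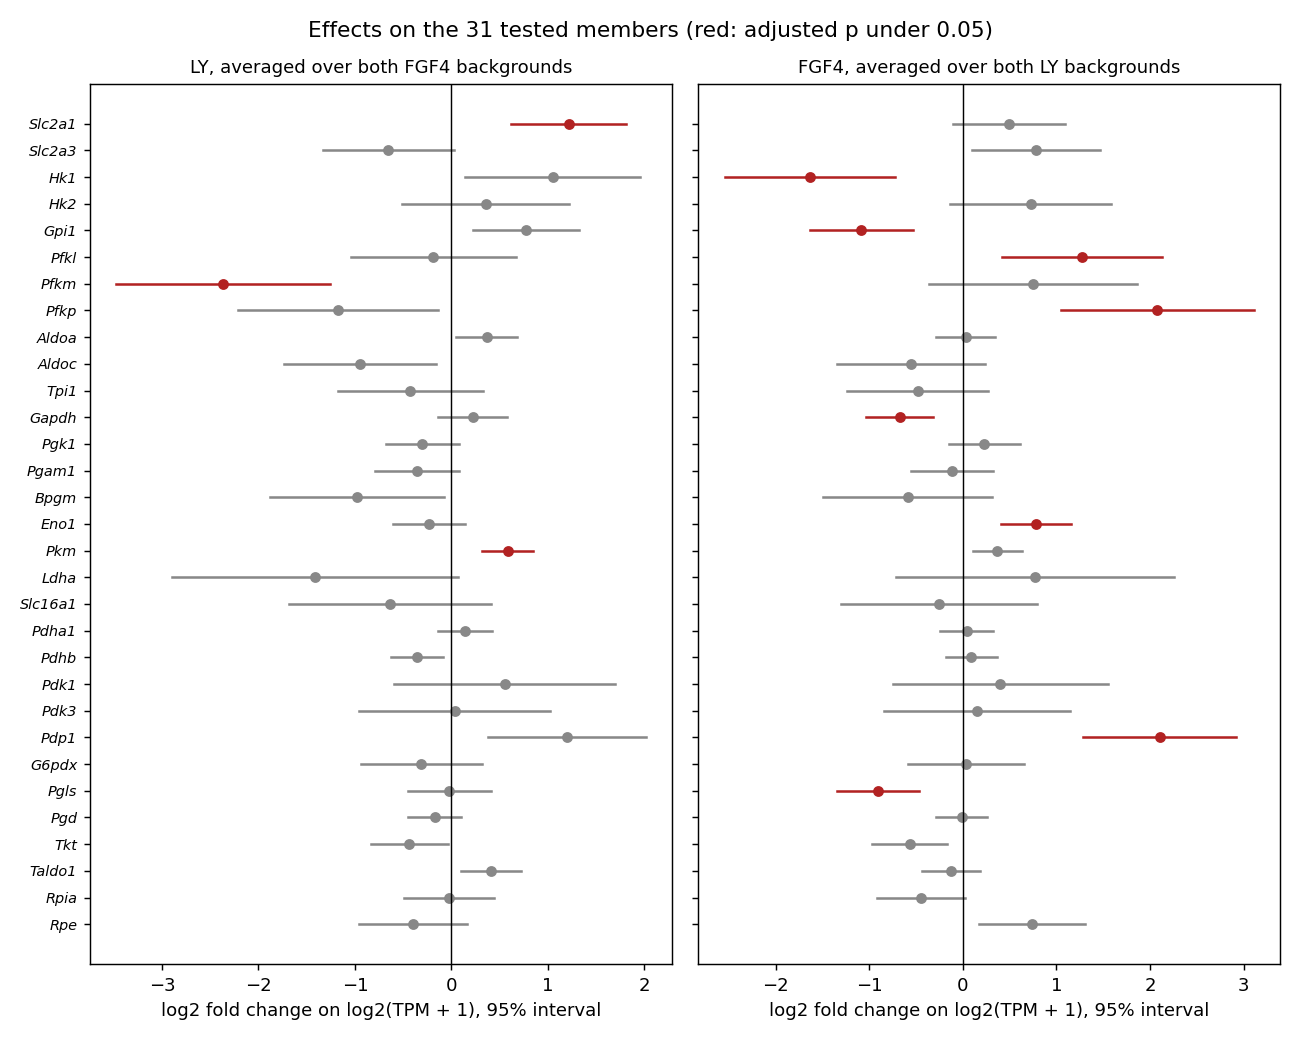
Log2 fold change of the 31 tested members on the log2(TPM + 1) scale with its 95% confidence interval, for LY (left) and FGF4 (right), each averaged over both backgrounds. Red marks an adjusted p under 0.05: Slc2a1, Pfkm and Pkm for LY, and 8 members for FGF4.

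Slc2a1 (ENSMUSG00000028645.11, chr4:119108711-119137983 on GRCm38), the glucose transporter GLUT1, was higher with LY. In DMSO it stood at 28.5, 48.9, 55.6, 30.9 and 38.5 TPM (replicates 3, 6, 7, 8 and 9, the order used for DMSO throughout). In LY the lowest, median and highest values were 33.6, 88.3 and 147 TPM, in FGF4 19.2, 39.5 and 167 TPM, and in LY+FGF4 73.1, 156 and 199 TPM. All LY+FGF4 libraries were above all DMSO libraries, while LY overlapped with DMSO and LY+FGF4 with FGF4. For how many of all genes LY+FGF4 lay wholly above DMSO was not counted. Averaged over backgrounds the log2 fold change with LY was 1.22 (SE 0.29, adjusted p = 0.0137), with 1.00 (adjusted p = 0.463) without FGF4 and 1.44 (adjusted p = 0.0385) with it. The averaged call held in 26 of 26 runs that each left out 1 library. It was lost without the 6 libraries of under 9000 genes (log2 fold change 0.88, adjusted p = 0.164), and adjusted p ranged from 0.00367 to 0.164 over all settings. The call with FGF4 was lost in 8 of 14 such runs, those without FGF4 replicate 3, 5, 6 or 7 or without LY+FGF4 replicate 2, 3, 6 or 8, with adjusted p of 0.0526 to 0.0790, and up to 0.575 over all settings. An antisense gene, Gm12868, overlaps an exon of Slc2a1 by 105 bases, and whether reads were counted by strand is not given in the sources used here. Slc2a3, which encodes GLUT3, went the other way in value but did not pass, with medians of 60.3 TPM in DMSO, 33.7 in LY, 71.1 with FGF4 alone and 66.7 in LY+FGF4 and an averaged log2 fold change with LY of -0.65 (95% interval -1.33 to 0.03).

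Hk1 (ENSMUSG00000037012.18, chr10:62268855-62379908), a hexokinase that phosphorylates incoming glucose, was lower with FGF4. It stood at 5.78, 3.59, 5.13, 5.28 and 12.02 TPM in DMSO. In LY it was 11.1, 17.2 and 35.3 TPM (lowest, median and highest, as in the rest), in FGF4 0, 2.35 and 12.5 TPM, and in LY+FGF4 0, 6.48 and 9.35 TPM. Every LY library was above every LY+FGF4 library, which held for 1.21% of all genes tested. The log2 fold change of LY+FGF4 against LY was -2.08 (SE 0.62, adjusted p = 0.0417) and the averaged change with FGF4 was -1.64 (SE 0.44, adjusted p = 0.0139). The first was lost in 8 of 13 runs with 1 library left out, those without LY replicate 2, 3, 4, 6, 7 or 8 or LY+FGF4 replicate 2 or 5 (adjusted p 0.0512 to 0.117), and the second in 0 of 26. Without the 6 libraries of few genes neither passed (adjusted p = 0.212 and 0.0938). With genes listed as a covariate the fold changes of Hk1 shrank to -0.51 (adjusted p = 0.785) and -0.47 (adjusted p = 0.666). Over all settings adjusted p ranged from 0.0164 to 0.785 for the first and from 0.00585 to 0.666 for the second. An antisense gene, Hk1os, overlaps an exon of Hk1 by 157 bases. Hk2, the isoenzyme known for its induction by growth signals, had medians of 12.1, 17.3, 18.5 and 28.1 TPM in DMSO, LY, FGF4 and LY+FGF4 and passed in no comparison.

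Gpi1 (ENSMUSG00000036427.5, chr7:34201330-34230336) makes fructose 6-phosphate from glucose 6-phosphate, the branch point to the pentose phosphate pathway, and fell with FGF4. DMSO libraries held 388, 341, 310, 446 and 574 TPM. LY libraries ranged from 375 to 764 TPM around a median of 509 TPM, and FGF4 libraries from 46.1 to 349 TPM around 166 TPM. LY+FGF4 ranged from 202 to 848 TPM around 263 TPM, with replicate 2 highest. The FGF4 libraries overlapped with DMSO only at their upper end and lay below all LY libraries. For how many of all genes FGF4 lay wholly below LY was not counted. FGF4 against DMSO gave a log2 fold change of -1.50 (SE 0.38, adjusted p = 0.0304) and the averaged change with FGF4 was -1.08 (SE 0.27, adjusted p = 0.00737). The first was lost in 8 of 13 runs, without any one of the 5 DMSO replicates or FGF4 replicate 1, 2 or 3 (adjusted p 0.05 to 0.0883), and the second in 0 of 26. Over all settings the ranges were 0.00398 to 0.283 and 0.00215 to 0.222. A long non-coding gene, Gm26762, overlaps an exon of Gpi1 by 255 bases on the other strand.

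Phosphofructokinase commits sugar to glycolysis, and its 3 genes are given in turn. Pfkm (ENSMUSG00000033065.14, chr15:98092589-98132451) stood at 2.79, 6.22, 7.79, 9.79 and 7.19 TPM in DMSO and was at 0 in 6 of 7 LY libraries, the other holding 1.06 TPM. Every LY library was below every DMSO library, which held for 1.54% of all genes tested. In FGF4 it was 0, 13.8 and 25.9 TPM, and 4 of 6 LY+FGF4 libraries were at 0, the others at 13.9 and 11.7 TPM. The averaged log2 fold change with LY was -2.37 (SE 0.54, adjusted p = 0.00992), against -2.73 without FGF4 (adjusted p = 0.147) and -2.00 with it (adjusted p = 0.128). That last change passed without FGF4 replicate 3 or without LY+FGF4 replicate 6, over a range of adjusted p from 0.0349 to 0.504. The averaged call held in 26 of 26 left-out runs and was lost with genes listed as a covariate (adjusted p = 0.159), the highest of a range from 0.00238 over all settings. These are low levels, at which a 0 can come from few reads, and Gm26513 overlaps a Pfkm exon by 341 bases on the same strand. Gm26513 held 4.35 and 2.2 TPM in LY+FGF4 replicates 5 and 7, where Pfkm itself was at 0. Medians of Pfkm plus Gm26513 were 7.19 TPM in DMSO, 0 in LY, 13.79 with FGF4 alone and 3.275 in LY+FGF4. Pfkm was not tested with Gm26513 added.

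Pfkl (ENSMUSG00000020277.10, chr10:77986947-78010083) and Pfkp (ENSMUSG00000021196.14, chr13:6579768-6648777) were higher with FGF4. Pfkl stood at 23.2, 16.6, 31.5, 23 and 20.5 TPM in DMSO, at 1.5, 23.5 and 58.8 TPM in LY, at 19, 74.3 and 120 TPM with FGF4 alone and at 17.8, 52.7 and 108 TPM in LY+FGF4. Pfkp stood at 7.88, 2.12, 1.32, 7.27 and 20.1 TPM in DMSO, at 0, 0.5 and 13.2 TPM in LY, at 11.2, 20.1 and 67.6 TPM with FGF4 alone and at 4.41, 10.8 and 32.6 TPM in LY+FGF4. For both genes the groups with and without FGF4 overlapped. With FGF4 the averaged log2 fold change was 1.27 for Pfkl (SE 0.42, adjusted p = 0.0413) and 2.08 for Pfkp (SE 0.50, adjusted p = 0.00640). Pfkp held its call in 26 of 26 left-out runs. Pfkl lost it in 15 of 26, those without DMSO replicate 3, 6, 8 or 9, LY replicate 2, 4, 6 or 8, FGF4 replicate 1, 3, 5 or 7 or LY+FGF4 replicate 3, 7 or 8 (adjusted p 0.0512 to 0.0735). Over all settings adjusted p reached 0.176 for Pfkl and 0.174 for Pfkp, both with the trophectoderm covariate. Pitrm1, a protease gene, overlaps a Pfkp exon by 748 bases on the other strand, so reads of the 2 genes cannot be told apart if strand was not used.

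**Figure D4:**
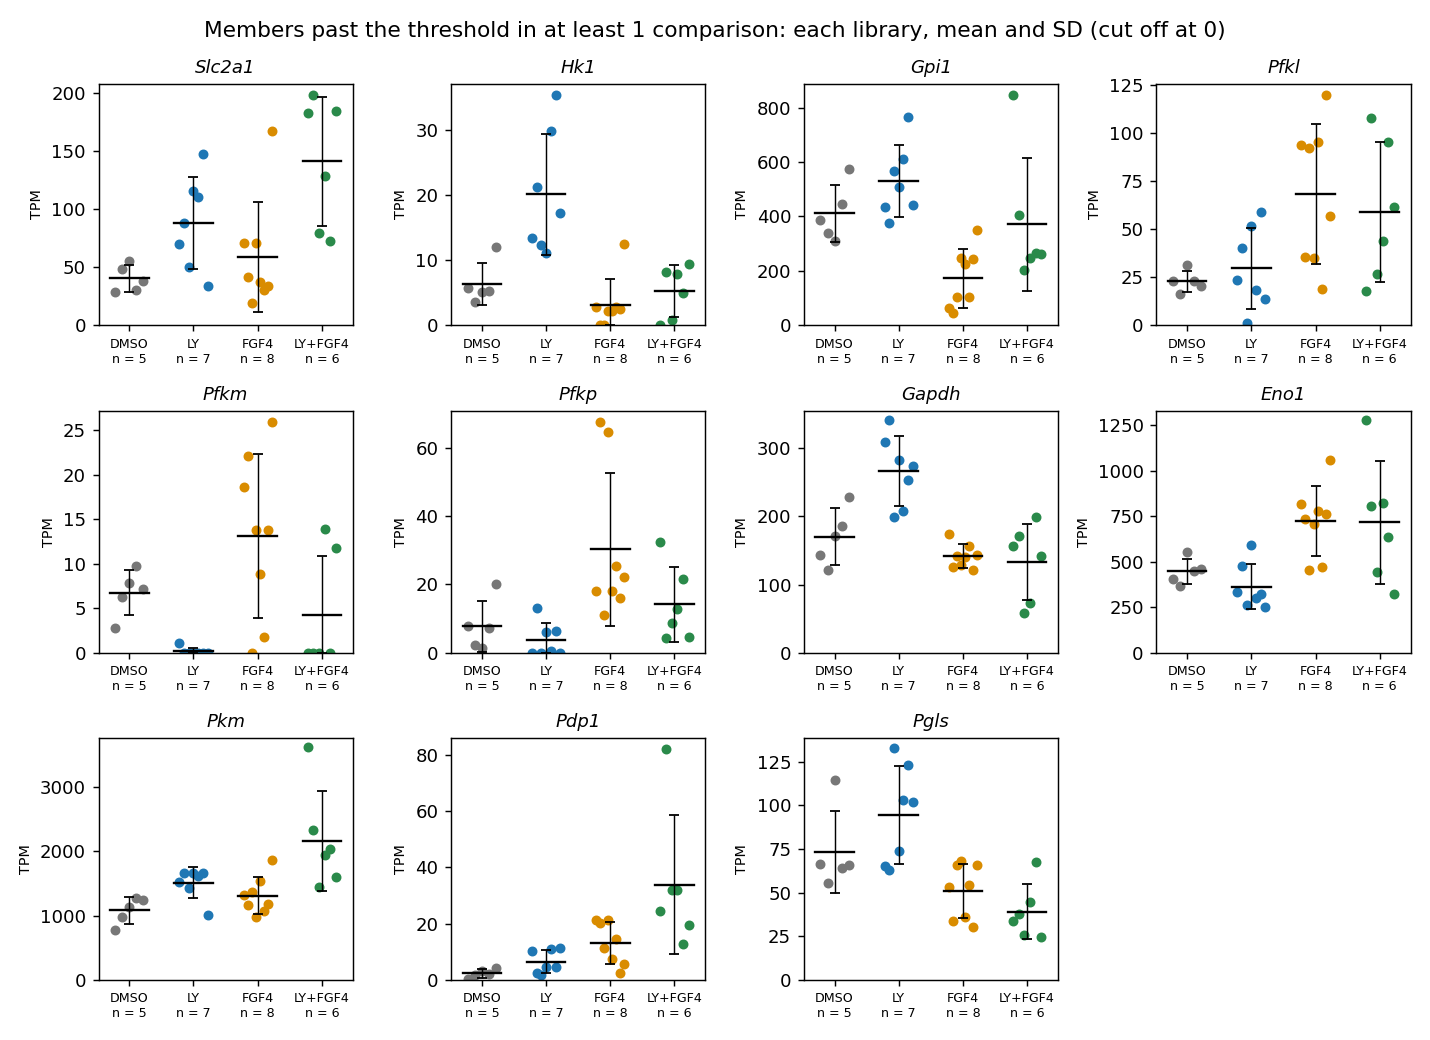
TPM of the 11 members past the threshold in at least 1 comparison, in each library (points), with the group mean (long line) and SD (whiskers, cut off at 0). Pfkm is at 0 TPM in 6 of 7 LY libraries, and the LY points of Hk1 all lie above those of LY+FGF4.

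Below phosphofructokinase, the abundant aldolase gene Aldoa passed in no comparison. It stood at 1734, 1697, 1969.9, 2618 and 2089 TPM in DMSO, and its averaged log2 fold change was 0.37 with LY (95% interval 0.05 to 0.68, adjusted p = 0.18) and 0.03 with FGF4 (interval -0.29 to 0.35). Tpi1, Pgk1 and Pgam1, which interconvert the triose phosphates and phosphoglycerates, did not pass either. Their averaged log2 fold changes were between -0.48 and 0.23. Bpgm was at 0 in all 6 LY+FGF4 libraries and in 5 of the other 20, so no fold is given for it there.

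Gapdh (ENSMUSG00000057666.18, chr6:125161715-125166467), glyceraldehyde 3-phosphate dehydrogenase, was lower with FGF4 only as far as its own symbol is counted. It stood at 143, 121, 171, 187 and 229 TPM in DMSO, at 199, 274 and 341 TPM in LY, at 121, 142 and 174 TPM with FGF4 alone and at 57.9, 149 and 199.6 TPM in LY+FGF4. Every FGF4 library was below every LY library, a pair for which the share of all genes wholly apart was not counted. LY+FGF4 overlapped with LY at 1 value. LY+FGF4 against LY gave a log2 fold change of -1.11 (SE 0.24, adjusted p = 0.00682), and the averaged change with FGF4 was -0.67 (adjusted p = 0.0102). The table also lists 89 near-identical copies of Gapdh, 87 of them pseudogenes (at least 95% identity over at least 300 bases). These copies held 11.4 to 25.5 TPM in DMSO, 16.5 to 44.5 in LY, 21.4 to 158 with FGF4 alone and 29.2 to 107 in LY+FGF4, and Gapdh kept 44.8 to 93.9% of the sum. For Gapdh plus copies, the log2 fold change of LY+FGF4 against LY was -0.57 (adjusted p = 0.145) and the averaged change with FGF4 was -0.20 (adjusted p = 0.474), so neither passed. Over all settings adjusted p ranged from 0.00301 to 0.145 for the first and from 0.00452 to 0.474 for the second. How reads were shared out between Gapdh and its copies is not given, so reads of Gapdh and of its copies cannot be told apart here.

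**Figure D5:**
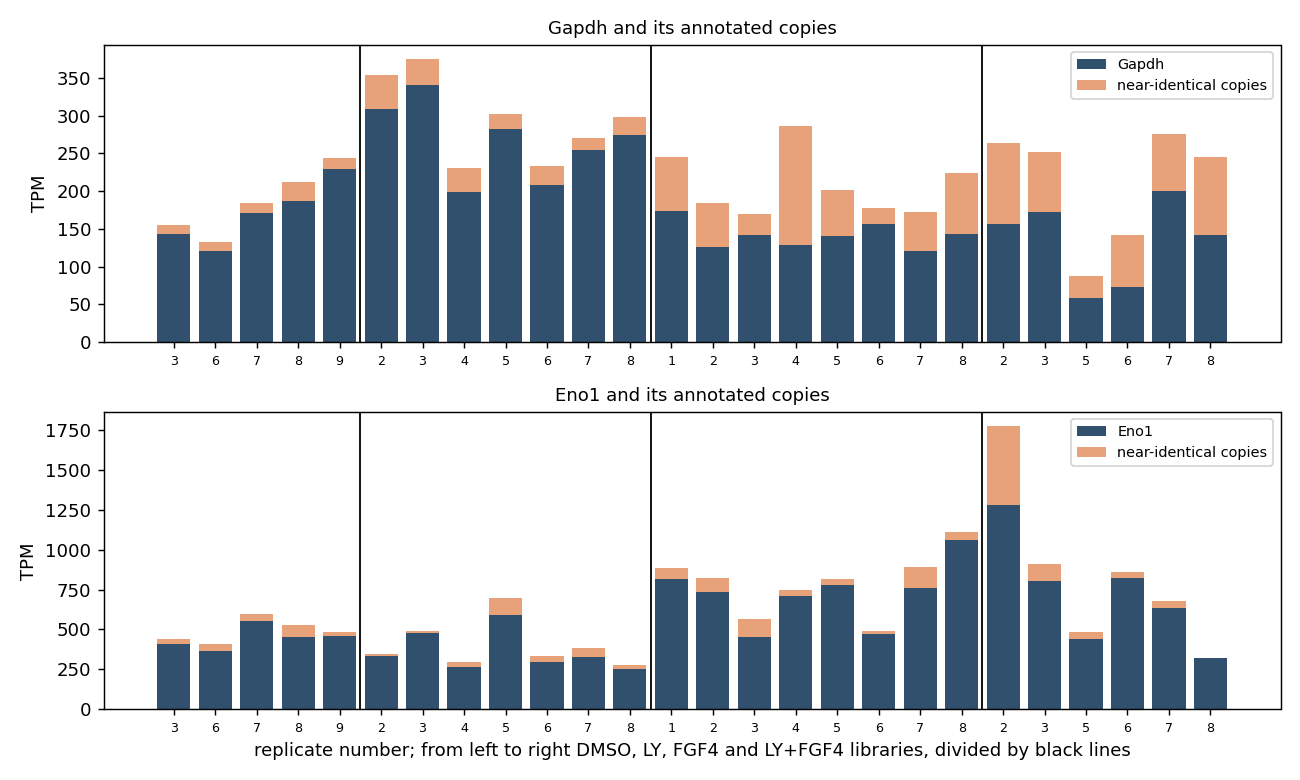
TPM of Gapdh (top) and Eno1 (bottom) in each library, with the summed TPM of their near-identical annotated copies stacked on top. Gapdh copies reach 158 TPM with FGF4 alone and at most 25.5 TPM in DMSO, and the Eno1 bars are highest in the groups with FGF4.

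Eno1 (ENSMUSG00000063524.13, chr4:150236721-150248879), the enolase that makes phosphoenolpyruvate, rose with FGF4. It stood at 407, 365, 554, 450 and 458 TPM in DMSO, at 251, 325 and 590 TPM in LY, at 455, 747 and 1058 TPM with FGF4 alone and at 320.5, 719.5 and 1278 TPM in LY+FGF4. The groups with and without FGF4 overlapped. The averaged log2 fold change with FGF4 was 0.78 (SE 0.18, adjusted p = 0.00475) and that of LY+FGF4 against LY was 0.91 (adjusted p = 0.0306). With 4 near-identical copies added, of which Eno1b had a median of 35.2 TPM, both stayed past the threshold (log2 fold change 0.78, adjusted p = 0.00815, and 0.91, adjusted p = 0.0438). The averaged call held in 26 of 26 left-out runs. The other was lost in 7 of 13, those without LY replicate 2, 4, 6 or 8 or LY+FGF4 replicate 2, 3 or 6 (adjusted p 0.0519 to 0.0929). Over all settings the ranges were 0.000815 to 0.180 and 0.00573 to 0.198, with the highest under a covariate for trophectoderm or for genes listed.

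Pkm (ENSMUSG00000032294.17, chr9:59656368-59679375), pyruvate kinase, rose with LY, by the smallest fold of the 3 members called in that comparison. It stood at 771, 981, 1136, 1266 and 1246 TPM in DMSO, at 1003, 1609 and 1667 TPM in LY, at 975, 1251 and 1861 TPM with FGF4 alone and at 1437, 1988 and 3620.25 TPM in LY+FGF4. All LY+FGF4 libraries were above all DMSO libraries, and 6 of 7 LY libraries were too, replicate 8 being the exception. The share of all genes with LY+FGF4 wholly above DMSO was not counted, so how common this is cannot be said. The averaged log2 fold change with LY was 0.58 (SE 0.13, adjusted p = 0.00822), with 0.49 without FGF4 (adjusted p = 0.386) and 0.68 with it (adjusted p = 0.0284). The averaged call held in 26 of 26 left-out runs, and the last was lost in 4 of 14, without FGF4 replicate 4 or 7 or LY+FGF4 replicate 2 or 3 (adjusted p 0.0521 to 0.0791). Over all settings the ranges were 0.00414 to 0.103 and 0.0132 to 0.207. The table gives 1 value for Pkm, so its PKM1 and PKM2 splice forms were not separated. Gm49759 overlaps a Pkm exon by 454 bases on the same strand.

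Ldha, which turns pyruvate into lactate, did not pass in any comparison with all libraries in the fit. It stood at 209, 69.9, 144, 195 and 131 TPM in DMSO, at 2.21, 51 and 153 TPM in LY, at 80.9, 217 and 478 TPM with FGF4 alone and at 0, 123 and 1085 TPM in LY+FGF4. With LY, averaged over backgrounds, the log2 fold change was -1.42, with a 95% interval of -2.90 to 0.07. LY+FGF4 against LY gave 0.99 (adjusted p = 0.619), and 2.29 (adjusted p = 0.0462) without LY+FGF4 replicate 5, the library at 0, over a range of 0.0462 to 0.926 in all settings. Slc16a1 ranged from 0 to 51.5 TPM over the libraries and passed in no comparison.

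At the entry of pyruvate into mitochondria, the subunits and the kinases of pyruvate dehydrogenase did not pass, while the phosphatase that turns the enzyme on did. Pdhb and Pdha1 had averaged log2 fold changes with FGF4 of 0.09 (95% interval -0.18 to 0.36) and 0.04 (-0.24 to 0.32). With LY they were -0.35 for Pdhb (-0.62 to -0.08, adjusted p = 0.127) and 0.14 for Pdha1 (-0.14 to 0.42). Pdp1 (ENSMUSG00000049225.14, chr4:11958184-11966452), the catalytic subunit of this phosphatase, rose with FGF4. It stood at 0.39, 1.57, 3.09, 2 and 4.31 TPM in DMSO, at 1.53, 4.5 and 11.3 TPM in LY, at 2.45, 12.9 and 21.4 TPM with FGF4 alone and at 12.7, 28.2 and 82 TPM in LY+FGF4. Every LY+FGF4 library was above every LY and every DMSO library, while FGF4 overlapped with DMSO. LY+FGF4 lay wholly above LY for 0.623% of all genes tested, and the share wholly above DMSO was not counted. With FGF4 it changed by an averaged log2 fold of 2.11 (SE 0.40, adjusted p = 0.000775), the lowest adjusted p of the members in that comparison. It held in 26 of 26 left-out runs and with the trophectoderm score as a covariate, and missed the threshold with genes listed as a covariate (1.79, adjusted p = 0.0517). LY+FGF4 against LY gave 2.21 (adjusted p = 0.0160), lost without the 6 libraries of few genes (1.74, adjusted p = 0.219). Adjusted p ranged from 0.000346 to 0.0517 for the averaged change over all settings and from 0.00817 to 0.242 for the other. With LY the averaged log2 fold change was 1.20 (adjusted p = 0.0799).

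In the pentose phosphate pathway 1 of the 7 enzymes passed with FGF4 averaged over backgrounds, a share near the 13% of all genes called there. Pgls (ENSMUSG00000031807.10, chr8:71592176-71601092), the lactonase that takes the second step, was lower with FGF4. It stood at 66.4, 55.5, 115, 64.2 and 65.9 TPM in DMSO, at 62.7, 102 and 133 TPM in LY, at 30.5, 53.9 and 67.9 TPM with FGF4 alone and at 24.6, 35.8 and 67.7 TPM in LY+FGF4. The groups with FGF4 overlapped with those without it. The averaged log2 fold change with FGF4 was -0.91 (SE 0.21, adjusted p = 0.00495) and that of LY+FGF4 against LY was -1.28 (adjusted p = 0.00944). Both held in every left-out run, 26 and 13, and both were lost without the 6 libraries of few genes (adjusted p = 0.0927 and 0.294). Their adjusted p ranged from 0.00210 to 0.111 and from 0.00419 to 0.294 over all settings. Fam129c overlaps a Pgls exon by 404 bases on the same strand, so their reads may be shared.

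G6pdx, the X-linked enzyme that opens the pathway, ranged from 7.47 TPM in LY+FGF4 replicate 2 to 192 TPM in LY replicate 3 and did not pass. Pgd, which yields NADPH at the next oxidative step, had the tightest spread of the members in DMSO, at 387 to 435 TPM, and averaged log2 fold changes of -0.17 with LY (95% interval -0.45 to 0.10) and -0.01 with FGF4 (-0.29 to 0.26). Tkt, Taldo1, Rpia and Rpe, which rearrange the sugars without oxidation, did not pass either. Tkt came nearest with FGF4, at a log2 fold change of -0.57 (adjusted p = 0.0532), and passed without DMSO replicate 7, LY replicate 8, FGF4 replicate 4 or LY+FGF4 replicate 5 (range over all settings 0.0125 to 0.293). Summed over the 7 enzymes, the pathway held a median of 0.106% of all TPM in DMSO, 0.107% in LY, 0.0992% with FGF4 alone and 0.0904% in LY+FGF4.

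Genes next to the module were taken from lists of 103 symbols, of which 80 were tested. Unlike those of members, their calls were not followed under the other settings, with a covariate or with a library left out. Of all genes, 4.64% were called with LY averaged and 13% with FGF4 averaged. With LY, averaged over both backgrounds, 1 of 6 tested phosphofructokinase regulators and fructose bisphosphatases was called. This was Fbp2, which reverses the phosphofructokinase step and was lower, at a log2 fold change of -0.64 (adjusted p = 0.00228). It stood at 997 to 1272 TPM in DMSO, 413 to 763 in LY, 856 to 1402 with FGF4 alone and 621 to 1235 in LY+FGF4, and every LY library was below every DMSO and FGF4 library. LY lay wholly below DMSO for 1.54% of all genes tested, and the share wholly below FGF4 was not counted. Fbp2 was also the only neighbouring gene called in LY against DMSO (-1.01, adjusted p = 0.0045), where 0.374% of all genes were called. Of 9 tested genes in the list for pyruvate entry, 1 was called with LY averaged. This was Pck2, the mitochondrial enzyme that makes phosphoenolpyruvate from oxaloacetate, which was lower (-2.09, adjusted p = 0.000323). Its medians were 110 TPM in DMSO, 57.7 in LY, 86.9 with FGF4 alone and 15.4 in LY+FGF4.

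Among the 7 tested side enzymes of the pentose phosphate pathway and NADPH supply, 2 were lower with LY, Me1 (-0.88, adjusted p = 0.00843) and Idh1 (-0.97, adjusted p = 0.00986), which both make NADPH in the cytosol, and 0 were higher, where 4.64% of all genes were called. The list's median log2 fold change was -0.88, beside -0.18 over all genes. In the list for glycogen and entry of other hexoses Galk1, galactokinase, was the 1 of 17 called, a share near that of all genes, and was lower with LY (-0.98, adjusted p = 0.00271). Sord, the 1 called of 4 tested in the glycerol phosphate and polyol branch, was lower as well (-0.88, adjusted p = 0.012). Of 14 tested isoenzymes outside the module, the muscle forms Pgam2 and Eno3 were lower with LY, and Eno3 was at 0 in 6 of 7 LY and all 6 LY+FGF4 libraries.

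The hypoxia list holds hypoxia factors and known targets of HIF outside glycolysis. With FGF4, averaged over both LY backgrounds, it had 2 genes higher and 3 lower of 18 tested. Of all genes 13% were called there, 528 higher and 1038 lower of 12034. P4ha1 (1.22, adjusted p = 0.00133) and P4ha2 (1.76, adjusted p = 0.0114), which hydroxylate collagen prolines, rose, and Bnip3 (-1.46, adjusted p = 0.00133), Kdm3a (-1.97, adjusted p = 0.00421) and Car9 (-3.50, adjusted p = 0.00206) fell. Bnip3, a mitophagy receptor, stood at 291 to 426 TPM in DMSO, 375 to 715 in LY, 53.8 to 524 with FGF4 alone and 47.4 to 390 in LY+FGF4. The glycogen phosphorylases Pygl and Pygb were lower with FGF4 (-1.82, adjusted p = 0.0333, and -1.95, adjusted p = 0.0176). In the list for glycogen and entry of other hexoses 2 of 17 tested genes were called, a share near the 13% of all genes. Of 9 tested genes of pyruvate entry, Mpc1 and Dld rose and Mpc2 and Pck2 fell, beside the same 13% of all genes. Of the 7 tested side enzymes of the pentose phosphate pathway and NADPH supply, 2 were lower with FGF4, as many as with LY. Higher were 1 of 6 phosphofructokinase regulators and fructose bisphosphatases and 1 of 14 isoenzymes outside the module. In the glycerol phosphate and polyol branch 1 of 4 was lower. Of 5 tested carbohydrate response factors and targets, 1 was called with FGF4 averaged. This was Mlxipl, which encodes the carbohydrate response factor ChREBP. It fell (-1.83, adjusted p = 0.00607) and was at 0 in 7 of 8 FGF4 and 5 of 6 LY+FGF4 libraries.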

How the data were processed

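Trimming and removal of duplicate reads came first, per the labels, and the submitters' processing notes name STAR, RSEM and mm10. Their versions, the annotation, the strand setting and any use of UMIs are not given. The authors deposited TPM per gene symbol, 26 libraries in 1 table, with no counts, so depth is unknown and no counting interval is given. limma 3.58.1 in R 4.3.3 was run on log2(TPM + 1) for the 12034 genes that reached 1 TPM in 5 or more libraries, with 1 mean per group over all 26 libraries, trend and robust options, two-sided, and Benjamini-Hochberg adjustment over all genes tested. Fold changes on this scale understate those of low genes. Isoenzyme shares, totals and motifs are descriptions. For LY+FGF4 beside DMSO and FGF4 beside LY, the share of all genes with groups wholly apart was not counted. Copies were found with blastn 2.17.0 against GENCODE M21 transcripts on GRCm38, whose positions are given. Alternatives were other pseudocounts, filters, scalings, weights, covariates and sets of libraries. Members and lists were chosen with earlier results of these data known. All 33 members are accounted for. Called members are given by library or by lowest, median and highest value. The other members are given by values, range, median, share or count, and called genes of neighbouring lists may be named. Libraries of equal replicate number were not treated as paired in the main fit (31 pairs, median r of residuals -0.00406), and no litter or batch is given.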

Additional observations from a re-analysis of the deposited data

Results flagged for a closer look

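In 124 groups of 5 to 8 libraries, each for 1 member, values were looked at on the log2(TPM + 1) scale. Groups with no spread, such as Bpgm in LY+FGF4 with all libraries at 0, are among the 124 but could not be flagged. A library was set apart where its gap to the nearest other made up most of the group's range on that scale (Dixon's 95% value). Chance gives this for about 1 in 20 groups of normally distributed values. That rate was not tested for these values, which are printed below as TPM. Where all other libraries are at 0 (Pfkm and Aldoc in LY, Aldoc in LY+FGF4) the gap is the whole range. Libraries were set apart 19 times. LY replicate 8 was low for Pkm (1003.43 TPM), Ldha (2.21 TPM), Pdk3 (0 TPM) and Tkt (53.02 TPM). LY replicate 3 was high for Aldoc (2.22 TPM) and G6pdx (191.88 TPM), LY replicate 2 was the 1 LY library with Pfkm above 0 (1.06 TPM), and LY replicate 6 was low for Rpia (25.07 TPM). Among LY+FGF4 libraries, replicate 5 was low for Hk2 (2.56 TPM) and Ldha (0 TPM), replicate 2 was low for Pdha1 (174.71 TPM) and G6pdx (7.47 TPM), and replicate 3 was high for Aldoc (8.09 TPM). In FGF4, replicate 4 was low for Slc16a1 (0 TPM) and Pdk3 (0 TPM), replicate 3 was low for Pgd (247.6 TPM) and replicate 8 was high for Aldoc (5.15 TPM). In DMSO, replicate 8 was low for Slc16a1 (2.26 TPM) and replicate 7 was high for Pgls (114.57 TPM). FGF4 replicate 3 and LY+FGF4 replicates 2, 3 and 5 are among the 6 libraries that list under 9000 genes.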

How the results depend on the processing

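Of 217 member results, 0 reversed while called, and 72 uncalled ones changed sign in some setting. Of 6734 alternative values, 114 lost and 44 gained a call. Genes past the threshold numbered 45 in LY against DMSO, 294 in FGF4 against DMSO, 427 in LY+FGF4 against FGF4, 758 in LY+FGF4 against LY, 558 for LY averaged, 6 for the interaction and 1566 for FGF4 averaged. In that order, leaving out 1 library gave 16 to 50, 112 to 431, 282 to 589, 528 to 872, 401 to 670, 2 to 11 and 1227 to 1669 genes, and 0 to 0, 0 to 2, 0 to 3, 3 to 5, 3 to 4, 0 to 0 and 7 to 10 members. Library weights gave 496 genes and 4 members for LY against DMSO, 1074 and 4 for FGF4 against DMSO, 111 and 0 for LY+FGF4 against FGF4, and 356 and 1 for LY+FGF4 against LY. Genes listed as a covariate gave 19, 181, 187, 108, 268 and 392 genes for the comparisons other than the interaction, in the order above, and 0 members in each but LY averaged, with 1. The trophectoderm covariate gave 22 genes and 0 members for FGF4 against DMSO, 320 and 3 for LY+FGF4 against LY, and 309 and 2 for FGF4 averaged. Without the 6 libraries of under 9000 genes, LY+FGF4 keeps only replicates 6 and 7. LY against DMSO then had 134 genes and 1 member (Pfkm), and FGF4 against DMSO 470 and 1. LY+FGF4 against FGF4 had 171 genes and 0 members, LY+FGF4 against LY 597 and 2, and the interaction 27 and 0. Fits of only the 2 groups gave 179 genes and 1 member for LY against DMSO and 354 and 0 for FGF4 against DMSO. They gave 80 and 0 for LY+FGF4 against FGF4, and 400 and 3 for LY+FGF4 against LY. With no filter, LY+FGF4 against FGF4 had 288 of 18297 genes and 1 member. With a filter at TPM of 5, FGF4 against DMSO had 307 of 10182 genes and 2 members. Quantile normalization gave 395 genes and 2 members for FGF4 against DMSO, 318 and 1 for LY+FGF4 against FGF4 and 496 and 5 for LY averaged. It moved the median log2 fold change of all genes from -0.24 to -0.01 in LY+FGF4 against FGF4, and the calls for LY averaged from 125 higher and 433 lower to 199 and 297, for LY+FGF4 against FGF4 from 87 and 340 to 128 and 190, for LY+FGF4 against LY from 216 and 542 to 271 and 409, and for FGF4 averaged from 528 and 1038 to 734 and 895. The cause of these shifts was not tested.

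A fit with the replicate number as a block was run because the labels do not say whether equal numbers share a source. Residuals of libraries with the same number showed little likeness (lowest r -0.0824, highest 0.068, and 2 libraries most like one of their own number). This cannot exclude a shared source. The replicate block gave 5 genes for LY against DMSO, 41 genes and 0 members for FGF4 against DMSO, 224 and 0 for LY+FGF4 against FGF4, 219 and 1 for LY averaged (Pfkm), 2 genes for the interaction and 906 for FGF4 averaged. Medians of the module total and of isoenzyme shares moved by less than 1 SD in the settings run. Depth is unknown in TPM, so a 0 cannot be given a limit.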
